A study of Drosophila melanogaster with 6 samples.

Results

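The alpha-esterases are a family of carboxylesterase genes that lie side by side on chromosome arm 3R of Drosophila melanogaster. The 10 members, alpha-Est1 to alpha-Est10, were chosen by gene symbol from a table of 14604 genes, with the values of the comparison between paraquat and sucrose already known, so that comparison is given here as a description and not as a test of the family. Carboxylesterases cut ester bonds with a catalytic serine. In insects, members of this family act on dietary and xenobiotic esters, and in the sheep blowfly Lucilia cuprina the ortholog of alpha-Est7 carries the changes that give resistance to organophosphate insecticides. The deposited gene descriptions assign carboxylesterase activity to all 10 genes, place the products of alpha-Est7 and alpha-Est2 on lipid droplets as well, and add cholinesterase activity for alpha-Est9.

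Heads of wild type (WT) Canton S males, 3 to 5 days old, were profiled by mRNA sequencing. The control group received 2.5% sucrose alone during 12 h of feeding, and the other group received 5 mM paraquat (PQ), a redox-cycling herbicide, in 2.5% sucrose for the same time. Each group had 3 libraries that the series describes as independent biological replicates, with RNA taken from 30 males per group, so each library pooled heads. Expression was deposited as RPKM, a read density scaled to the length of each gene and to the number of mapped reads, which corrects for gene length and allows levels to be set side by side between genes. The lowest value in the table was 1 RPKM, which was treated as a floor, and between 34.8% and 35.5% of genes stood at it in each library. The table holds no read counts, so the number of reads behind each value is not given. The study lists total reads per library, which were not used here.

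In the dm3 assembly the cluster ran from 3R:3312305 to 3R:3374844, a span of 62.5 kb. The order along the arm was alpha-Est10, alpha-Est9, alpha-Est8, alpha-Est7, alpha-Est6, alpha-Est5, alpha-Est4, alpha-Est3, alpha-Est2 and alpha-Est1. All members were on the minus strand except alpha-Est2, which was on the plus strand. The closest neighbours were alpha-Est5 and alpha-Est4, separated by 161 bases, and the widest interval between members was the 11978 bases between alpha-Est9 and alpha-Est8. By these dm3 intervals, alpha-Est10, alpha-Est9 and alpha-Est8 stood widely spaced at the end with the lowest coordinates, whereas alpha-Est5 to alpha-Est1 were packed closely at the other end. In the later BDGP6.54 annotation alpha-Est9 spans 11178 bases against 2294 in dm3, and alpha-Est10 spans 7263 against 4974. At the other end, alpha-Est2 spans 3421 bases against 2487 in dm3, and alpha-Est5 spans 2895 against 2297. Distances between members were not computed in that annotation, so the spacing holds for the dm3 gene models only.

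The gene models of the members also differed in their coding exons. In the Ensembl BDGP6.54 annotation, which is a later assembly and was used only for gene structure, the longest coding sequence of a member ranged from 1623 bases in alpha-Est4 to 1761 bases in alpha-Est9. The number of coding exons ranged from 3 in alpha-Est1, alpha-Est2 and alpha-Est6 to 6 in alpha-Est7. A coding exon of exactly 313 bases occurred in alpha-Est7, alpha-Est8, alpha-Est9 and alpha-Est10, which are neighbours on the arm. A coding exon of 467 bases occurred in the adjacent pair alpha-Est1 and alpha-Est2, and a coding exon of 277 bases in the adjacent pair alpha-Est4 and alpha-Est5. A coding exon of 47 bases occurred in the adjacent pair alpha-Est1 and alpha-Est2 and in the adjacent pair alpha-Est7 and alpha-Est8. Other shared lengths joined members that are not adjacent. They were 151 bases in alpha-Est5 and alpha-Est7, and 1184 bases in alpha-Est2 and alpha-Est4. How reads that matched several of these related genes were assigned is not given in the sources used here, so values of similar members could share reads.

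Of the 10 alpha-esterases, 9 were above the floor in at least 1 library. alpha-Est7 had the highest level of the family. Its values were 117.6, 94.2 and 88.0 RPKM in sucrose replicates 1, 2 and 3 and 110.3, 117.9 and 117.3 RPKM in PQ replicates 1, 2 and 3. Sucrose replicate 1 lay among the PQ libraries, so the groups overlapped, while the other sucrose libraries lay below all 3 PQ libraries. In sucrose-fed heads alpha-Est7 made up 36.0% of the summed family RPKM, and 93.9% of all genes in the table had a lower mean RPKM.

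alpha-Est8 followed, with 58.9, 54.3 and 52.0 RPKM in the sucrose libraries and 50.0, 57.4 and 56.3 RPKM in the PQ libraries. alpha-Est1, at the opposite end of the cluster, had 43.7, 44.7 and 39.1 RPKM in sucrose and 43.0, 44.6 and 48.6 RPKM in PQ. alpha-Est9, the member annotated with cholinesterase activity, had 34.98, 35.82 and 38.56 RPKM in sucrose and 36.9, 34.4 and 34.8 RPKM in PQ. In each of these members the ranges of the groups overlapped. alpha-Est9 was the steadiest of the tested members, with a coefficient of variation of 4.38% over the 6 libraries.

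alpha-Est10 had 27.3, 17.3 and 18.9 RPKM in sucrose and 25.7, 19.0 and 21.7 RPKM in PQ. The libraries numbered 1 were the highest of both groups, and the same held for alpha-Est2 and alpha-Est5. The 6 listed muscle markers ran the other way, with sums of 1743, 2532 and 2464 RPKM in sucrose and 1576, 2271 and 2470 RPKM in PQ, each marker being lowest in the libraries numbered 1 of both groups. Their part in these values was not tested. alpha-Est3 had 10.8, 12.4 and 10.4 RPKM in sucrose and 11.1, 11.7 and 12.8 RPKM in PQ. alpha-Est2, the plus-strand gene, had 7.41, 4.71 and 5.61 RPKM in sucrose and 8.01, 5.92 and 6.60 RPKM in PQ. alpha-Est5 had 4.45, 3.00 and 3.12 RPKM in sucrose and 4.95, 3.45 and 4.57 RPKM in PQ. The groups of all 4 of these members overlapped, and alpha-Est5 was the most variable of the tested members, with a coefficient of variation of 21.3%.

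The remaining members were at or near the floor. alpha-Est4 had 1.05 RPKM in both sucrose replicates 1 and 3 and stood at the floor in sucrose replicate 2. Its PQ values were 1.20, 1.10 and 1.32 RPKM. It was the only tested member whose groups did not overlap, and all of its values were close to the floor. alpha-Est6 was listed at 1 RPKM in all 6 libraries and was therefore left out of the fit. The dm3 interval of alpha-Est6 encloses the pseudogene alpha-Est4aPsi on the opposite strand, which was also listed at the floor in every library.

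**Figure D1:**
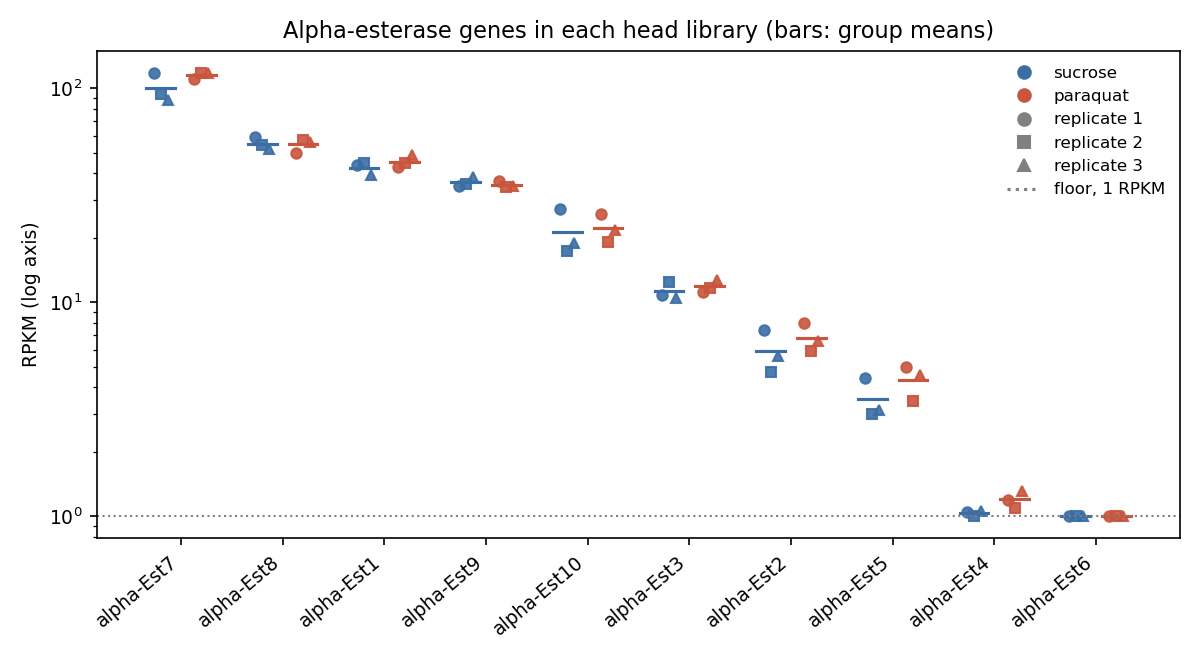
RPKM of the 10 alpha-esterases on a log axis, with a point for each of the 3 sucrose and 3 PQ libraries and a bar at each group mean. alpha-Est7 stands highest in both groups at means of 99.9 and 115.2 RPKM, and alpha-Est6 lies on the floor of 1 RPKM in all 6 libraries.

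The order of mean levels was identical in the groups, running alpha-Est7, alpha-Est8, alpha-Est1, alpha-Est9, alpha-Est10, alpha-Est3, alpha-Est2, alpha-Est5, alpha-Est4 and alpha-Est6. In PQ the ranges of neighbours in that order did not overlap in any of the 9 steps. In sucrose they did not overlap in 8 of 9 steps, the exception being alpha-Est4 and alpha-Est6 at the floor. The widest ratio among the 4 highest members was between alpha-Est7 and alpha-Est8, at 1.81 in sucrose and 2.11 in PQ. alpha-Est8 exceeded alpha-Est1 by a ratio of 1.30 in sucrose and 1.20 in PQ, and alpha-Est1 exceeded alpha-Est9 by 1.17 and 1.28. The 4 members with the 313-base coding exon were therefore among the 5 highest, together with alpha-Est1. Other shared exon lengths gave no single picture. The members with the 277-base exon stood at ranks 8 and 9, those with the 467-base exon at ranks 3 and 7, and those with the 151-base exon at ranks 1 and 8. Whether exon structure goes with level was not tested.

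**Figure D2:**
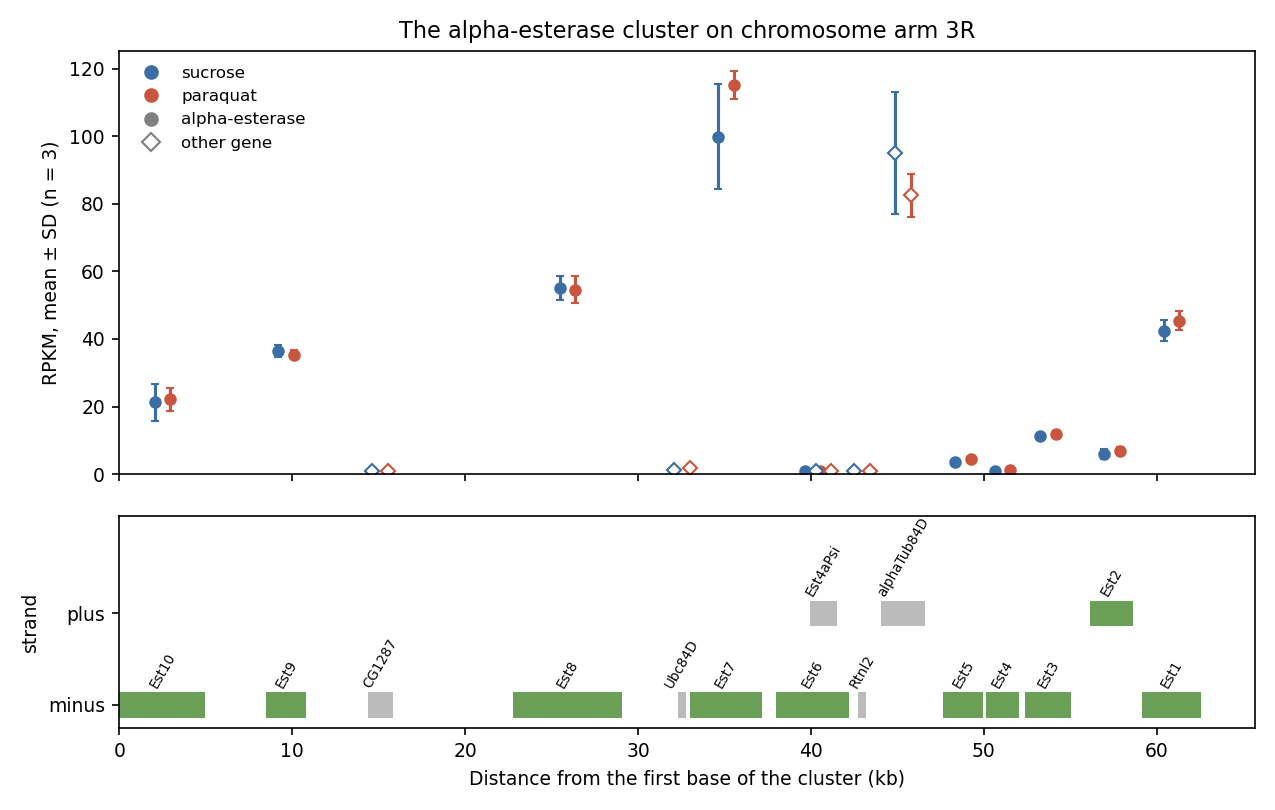
Upper panel, mean RPKM with SD (n = 3 libraries) of each gene of the cluster in sucrose and PQ, plotted at its distance in kb from the first base of the cluster. Lower panel, intervals of the 10 alpha-esterases (green) and the 5 other genes lying among them (grey) by strand, with alpha-Est7 and alphaTub84D as the highest genes of the region.

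Levels of the genes lying among the alpha-esterases ranged from the floor to those of the highest members. The region held 5 such genes, and CG1287, Rtnl2 and alpha-Est4aPsi were at the floor in all 6 libraries. alphaTub84D, an alpha-tubulin gene between alpha-Est6 and alpha-Est5, had 76.1, 111.8 and 97.3 RPKM in sucrose and 75.6, 83.9 and 88.0 RPKM in PQ, and the groups overlapped. Ubc84D, annotated as a ubiquitin-conjugating enzyme and 203 bases from alpha-Est7, was at the floor in sucrose replicate 1 and had 1.24 and 1.22 RPKM in sucrose replicates 2 and 3. It had 2.63, 1.40 and 1.78 RPKM in PQ, above every sucrose library. Its difference was 0.53 on the log2(RPKM + 0.5) scale (SE 0.18) and did not pass the adjusted threshold. alpha-Est7, its nearest member, differed by 0.21 (SE 0.11) on the same scale.

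The comparison of PQ with sucrose asks which genes respond in the head to a short exposure. Across all genes, limma on log2(RPKM + 0.5) with Benjamini-Hochberg adjustment called 8 of 9853 tested genes, or 0.0812%, all higher in PQ. None of the 9 tested alpha-esterases passed this threshold, and none had an unadjusted p below 0.05, against 383 genes or 3.89% of all tested genes. With so low a background, the members' count of 0 was near what the whole table gave. The bulk heads hold many cell types, so fewer cells of a type and less RNA per cell cannot be told apart.

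The differences, PQ minus sucrose on the log2(RPKM + 0.5) scale, were positive for 7 of the 9 tested members and negative for 2, of which alpha-Est8 turned positive, at 0.01, when the RPKM were rescaled by trimmed means of M-values. Their median was 0.10, beside -0.02 over all tested genes, of which 4157 were positive and 5696 negative. alpha-Est5 had the highest value at 0.27 (SE 0.18, 95% interval -0.16 to 0.69). alpha-Est7 followed at 0.21 (SE 0.11, interval -0.05 to 0.48), with a mean of 99.9 ± 15.6 RPKM in sucrose and 115.2 ± 4.25 RPKM in PQ (SD, n = 3 each). alpha-Est2 stood at 0.21 (SE 0.18), alpha-Est4 at 0.15 (SE 0.08), alpha-Est1 at 0.10 (SE 0.08), alpha-Est10 at 0.08 (SE 0.19) and alpha-Est3 at 0.08 (SE 0.10). The negative values were those of alpha-Est8 at -0.01 (SE 0.08) and alpha-Est9 at -0.04 (SE 0.06). All 9 intervals included 0. The interval of alpha-Est7 allowed a ratio from 0.964 to 1.40.

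The non-overlapping groups of alpha-Est4 made up 1 of 9 tested members, where 3.11% of all tested genes had every PQ library above every sucrose library. With 3 libraries against 3, an exact two-sided permutation test cannot give a p below 0.10. alpha-Est4 is a low-level gene, and its values carry the floor of the table in sucrose replicate 2. The difference of alpha-Est7 depended on the weighting of libraries. With library quality weights it was 0.37 (SE 0.07), past the adjusted threshold of 0.05 in limma, in a fit that called 245 genes or 2.49% of those tested. That fit gave sucrose replicate 3 a weight of 4.57 and PQ replicate 2 a weight of 3.85. The other weights were 0.39 and 0.35 for sucrose replicates 1 and 2, and 0.47 and 0.86 for PQ replicates 1 and 3. The heavily weighted libraries held the lowest sucrose value (88.0 RPKM) and the highest PQ value (117.9 RPKM) of alpha-Est7. Without sucrose replicate 1, the difference of alpha-Est7 was 0.34 and was not called.

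**Figure D3:**
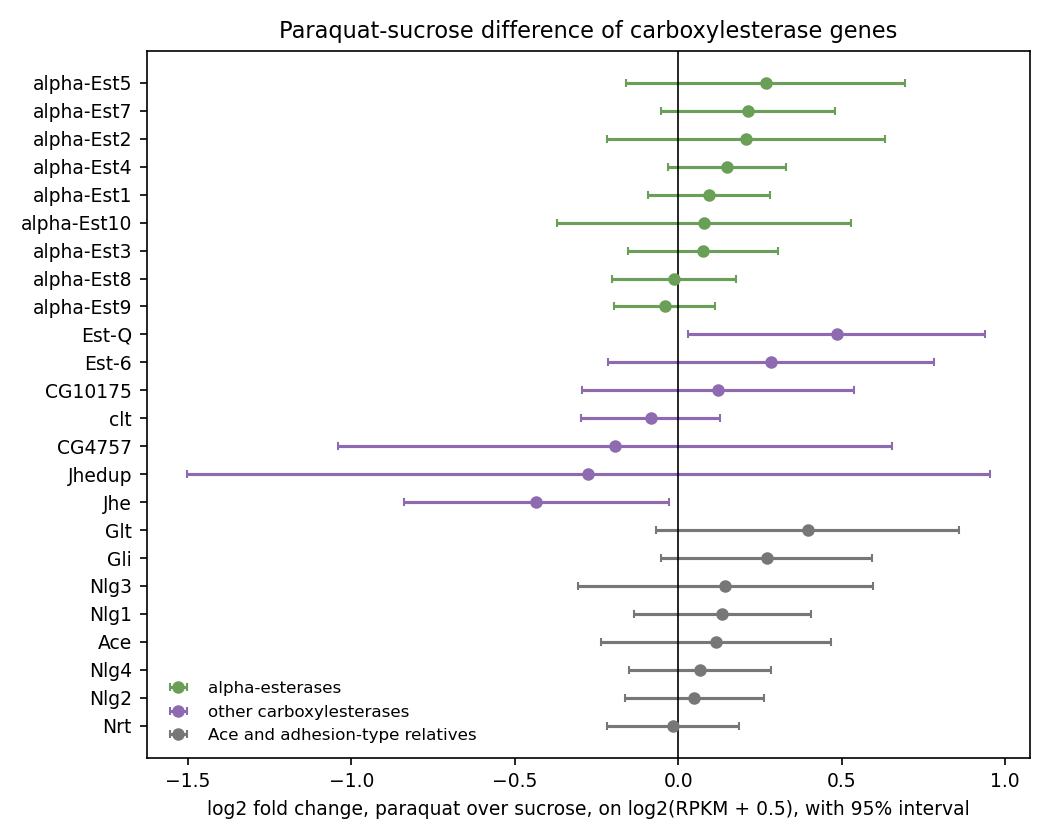
Difference between PQ and sucrose on the log2(RPKM + 0.5) scale for 9 alpha-esterases and their tested relatives, with 95% intervals from limma (n = 3 libraries per group). The intervals of all 9 alpha-esterases cross 0, and those of Est-Q and Jhe do not.

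The summed RPKM of the family was 307.3, 268.5 and 257.8 in sucrose replicates 1, 2 and 3 and 292.3, 296.6 and 304.9 in PQ replicates 1, 2 and 3. Sucrose replicate 1 was the highest library of all 6, and the other sucrose libraries were the lowest. The means were 277.9 ± 26.02 RPKM in sucrose and 297.9 ± 6.395 RPKM in PQ (SD, n = 3 each), a ratio of 1.07, and the groups overlapped. The SD of the sucrose group was therefore larger than the difference between the means. alpha-Est7 made up 36.0% of the family sum in sucrose and 38.7% in PQ, so the sum follows this member more than any other. Without alpha-Est7 the sums were 189.7, 174.3 and 169.9 RPKM in sucrose replicates 1, 2 and 3. In PQ replicates 1, 2 and 3 they were 182.0, 178.7 and 187.6 RPKM, and the groups still overlapped. Sucrose replicate 1 was the highest of its group for 5 of the 9 tested members, which are alpha-Est2, alpha-Est5, alpha-Est7, alpha-Est8 and alpha-Est10.

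The members did not vary together as a block over the libraries. Pearson correlations of log2 RPKM over the 6 libraries were computed for the 28 pairs of the 8 members above the floor in every library. They are descriptive, since the libraries share the groups and the reads behind each value are not given. alpha-Est2 varied with alpha-Est10 and with alpha-Est5 (r = 0.94 each), and alpha-Est5 with alpha-Est10 (r = 0.89). These are the 3 members that were highest in the libraries numbered 1 of both groups. alpha-Est1 varied with alpha-Est3 (r = 0.88). The correlations of alpha-Est9 were -0.80 with alpha-Est7, -0.82 with alpha-Est8, -0.83 with alpha-Est1 and -0.60 with alpha-Est3. They were weak with alpha-Est5 (-0.25), alpha-Est10 (-0.12) and alpha-Est2 (-0.09). The variation of alpha-Est9 behind these values was small, with a coefficient of variation of 4.38% over the 6 libraries.

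**Figure D4:**
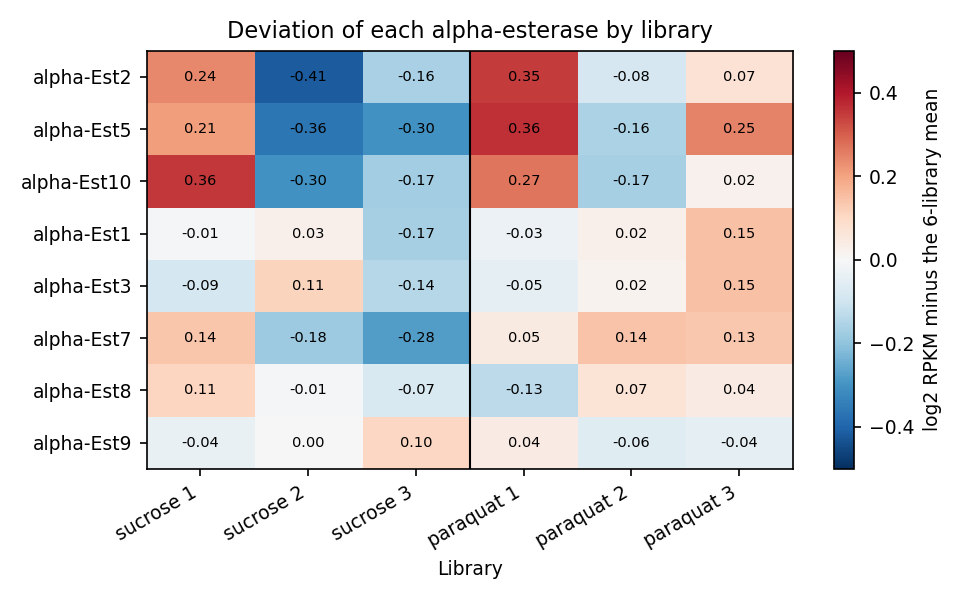
Deviation in log2 RPKM of the 8 alpha-esterases above the floor in every library from their own means over the 6 libraries, with members in rows and libraries in columns. alpha-Est10, alpha-Est2 and alpha-Est5 are high in the libraries numbered 1 of both groups, whereas alpha-Est9 is high in sucrose replicate 3.

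The sum of the markers of hemocytes, the blood cells of the fly, followed nearly the same order of libraries as the family sum. Single markers did not all do so, and srp, the highest of them in every library, peaked in PQ replicate 1 at 13.3 RPKM. The 6 listed markers summed to 32.8, 14.7 and 14.1 RPKM in sucrose replicates 1, 2 and 3 and to 24.2, 27.5 and 33.0 RPKM in PQ replicates 1, 2 and 3. He, nimC1 and eater were at the floor in sucrose replicates 2 and 3, and nimC1 in PQ replicate 1, whereas none of the 6 was at the floor in the other libraries. Their part in the alpha-esterase values was not tested. The head origin of the samples was visible in the listed markers of neurons, glia and photoreceptors, which were all above the floor in at least 1 library. The 9 gut markers and the 6 markers of testis and accessory gland were at the floor throughout. The 6 fat body markers summed to 817, 546 and 397 RPKM in sucrose replicates 1, 2 and 3 and to 546, 473 and 493 RPKM in PQ. Fbp1, Fbp2 and Lsp1gamma were at the floor in all libraries. Like the family sum, the fat body sum was highest in sucrose replicate 1 and lowest in sucrose replicate 3. The other libraries did not keep the family order. Sucrose replicate 2 was level with or above the PQ libraries in the fat body sum but below all of them in the family sum. Lsp2 had the same extremes as the sum, whereas Rfabg was highest in PQ replicate 1 (348.4 RPKM) and fit in sucrose replicate 2 (12.7 RPKM). The part of the fat body in the alpha-esterase values was not tested. None of the listed markers passed the adjusted threshold.

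By Pearson correlation of log2 values, the genes whose levels over the 6 libraries were most like the summed family were scu, CG8315 and NtR, out of 7778 genes outside the family that were above the floor in every library with a mean of at least 5 RPKM. scu, which encodes a mitochondrial hydroxyacyl-CoA dehydrogenase, had r = 0.991, with 100.3, 83.1 and 75.1 RPKM in sucrose and 94.9, 94.3 and 100.1 RPKM in PQ. CG8315 had r = 0.989 and NtR had r = 0.987. In all, 104 genes had r above 0.9, so this likeness was not particular to these 3.

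Other carboxylesterases outside the cluster gave a mixed picture. Of 13 listed genes, 7 were tested and 6 were at the floor in all libraries. None passed the adjusted threshold, with positive differences for 3 and negative differences for 4, a median of -0.08 beside -0.02 over all tested genes. Est-Q had 12.7, 8.75 and 9.21 RPKM in sucrose and 18.1, 12.8 and 12.5 RPKM in PQ, a difference of 0.49 (SE 0.19), and its groups overlapped. Jhe, the juvenile hormone esterase, had 3.02, 4.31 and 2.62 RPKM in sucrose and 2.16, 2.10 and 2.59 RPKM in PQ, a difference of -0.43 (SE 0.17). Its PQ libraries all lay below its sucrose libraries, as did those of 4.47% of all tested genes. Est-Q and Jhe had an unadjusted p below 0.05, beside 3.89% of all tested genes, and whether the relatives differ from the alpha-esterases in this was not tested.

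Est-6, best known from the male ejaculatory duct and also made in antennae, had 176.5, 104.2 and 105.4 RPKM in sucrose and 138.3, 152.1 and 166.9 RPKM in PQ. As with alpha-Est7, sucrose replicate 1 stood apart from the other sucrose libraries, and the difference was 0.28 (SE 0.21). Est-6 was the only other listed carboxylesterase above alpha-Est7 in mean RPKM in both groups. clt, the remaining relative named by the rule, differed by -0.08 (SE 0.09).

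Of the 8 relatives with acetylcholinesterase or adhesion roles, all were tested and none passed the adjusted threshold or had an unadjusted p below 0.05. Their median difference was 0.13 beside -0.02 over all tested genes, with 7 positive and 1 negative. The 6 neuron markers had a median difference of 0.19, with sums of 1315, 1094 and 1333 RPKM in sucrose and 1386, 1314 and 1195 RPKM in PQ, and their part in the values of these relatives was not tested. Ace, the acetylcholinesterase that ends cholinergic transmission, had 77.3, 54.6 and 71.7 RPKM in sucrose and 81.2, 74.0 and 64.3 RPKM in PQ, a level between those of alpha-Est8 and alpha-Est7. Like the sum of the neuron markers, it was lowest in sucrose replicate 2. Its difference was 0.12 (SE 0.15) and the groups overlapped. Gli, the gliotactin of septate junctions, differed by 0.27 (SE 0.14), Glt, the secreted glutactin, by 0.40 (SE 0.19), and Nlg1, a neuroligin, by 0.14 (SE 0.11).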

How the data were processed

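Per the submitters' processing notes, alignment used TopHat2 2.0 and the dm3 assembly, and the authors deposited 1 RPKM value per gene and library from paired-end reads of 50 bp. Their methods name trimmed means of M-values, and the quantifying program is not given in the sources used here. A deposited list of the authors' own fold changes was not used, and 2 further libraries of the study were not analysed here. The members and lists were chosen with earlier results of these data known. Genes at the floor of 1 RPKM in all 6 libraries were left out (4751 of 14604). The other 9853 were fitted with limma 3.58.1 in R 4.3.3 on log2(RPKM + 0.5), with a mean-variance trend and Benjamini-Hochberg adjustment at 0.05, after the code was tested on simulated data. RPKM are not counts, so no count model was used. The p-values set each group difference against the spread between libraries within the groups, which limma moderates over all genes. Fold changes on this scale understate those of low genes. Named were all members, the genes between them, up to 4 relatives per list with the smallest p, and the 3 genes most like the family sum. Gene structure came from Ensembl release 115 (BDGP6.54) and was matched by gene identifier. Members and lists were matched by gene symbol, and by gene identifier where no symbol matched. The planned protein and promoter descriptions were not made. Alternatives covered pseudocount, filter, normalization, variance model, library weights, replicate block and each library left out.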

Additional observations from a re-analysis of the deposited data

How the results depend on the processing

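The fit over all genes called 8 genes. It called 5 with a pseudocount of 0.1, 1 with no filter, 0 with quantile normalization (402 at an unadjusted p below 0.05), 0 without the variance trend (399 unadjusted) and 245 with library quality weights. Leaving out each library gave from 0 to 5 genes: 5 without PQ replicate 1 and 0 without any other single library, where 254 to 1069 genes had an unadjusted p below 0.05. Without both libraries numbered 1, a choice made after seeing the data, 0 genes were called (862 unadjusted). The labels do not say whether same-numbered libraries were paired. Deviations of same-numbered libraries from their group means correlated at 0.41, 0.06 and 0.05 for replicates 1, 2 and 3. Differently numbered libraries were not compared in this way, so these values cannot decide whether the numbers pair the libraries. The fit with the replicate block called 4 genes and 0 alpha-esterases.

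The count of alpha-esterases called was 0 under all these settings except library quality weights, which called 1, alpha-Est7 (adjusted p = 0.0476 in limma, beside 0.951 without weights and a range of 0.0476 to 1 over the alternatives). At an unadjusted p below 0.05, 4 alpha-esterases passed with library quality weights (25.1% of all genes tested), 2 without sucrose replicate 1 (10.9%), 1 without both libraries numbered 1 (8.87%), 1 with no filter (2.94%) and 0 under the other settings. No relative in the list of other carboxylesterases was called under any setting. Leaving out each library put the difference of alpha-Est7 between 0.13 and 0.34. The sign changed for alpha-Est8, at 0.10 with library quality weights, 0.10 without both libraries numbered 1 and 0.01 with trimmed means of M-values (-0.05 to 0.05 with a library left out), and for alpha-Est10 when single libraries were left out (-0.05 to 0.27). The log2 ratio of the summed family was 0.10, and between 0.05 and 0.18 with a library left out. Limits are the floor, which holds alpha-Est4 and alpha-Est6, the lack of read counts per gene, and 3 libraries per group.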

Other observations

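After scu, CG8315 and NtR, the genes whose levels were most like the summed alpha-esterases over the 6 libraries were nimB5, psh, ninaD, Jheh1, CG30046, Cyp6a21 and nimB4, named here after their values were seen. nimB5, a nimrod family gene, had r = 0.986, with 14.2, 5.49 and 4.76 RPKM in sucrose and 8.92, 10.9 and 14.3 RPKM in PQ. psh, the serine protease persephone of the Toll pathway, had r = 0.986, with 21.7, 16.3 and 13.7 RPKM in sucrose and 18.7, 19.5 and 20.6 RPKM in PQ. Jheh1, a juvenile hormone epoxide hydrolase, had r = 0.983, and the cytochrome P450 gene Cyp6a21 had r = 0.9748. In nimB5, psh, Jheh1 and Cyp6a21 sucrose replicate 1 was the highest sucrose library and lay within or above the PQ range. No test was made of these correlations, which share the 6 libraries with the family sum.

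The interval of alpha-Est9 was 2294 bases in dm3 and 11178 bases in BDGP6.54, a ratio of 4.87. The span was also longer in BDGP6.54 for alpha-Est10 (ratio 1.46), alpha-Est2 (1.38) and alpha-Est5 (1.26), and nearly unchanged for the other members. alpha-Est10, alpha-Est2 and alpha-Est5 are also the members that varied together most closely over the libraries. The gene models behind the RPKM are not given in the sources used here. Whether they bear on the levels of these members, or on the order of levels, was not tested.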
